A study of Mus musculus with 6 samples.

Results

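The AP-1 and immediate early transcription factors described here are Jun, Junb, Jund, Fos, Fosb, Fosl1, Fosl2, Egr1, Ier2 and Myc, and 8 of these 10 genes were matched by symbol in a table of 13931 genes. Fosb and Fosl1 are not in the table used here. The genes were selected on measured values, because this contrast between control and Celf1cKO lenses was known when the list was drawn up. Their differences between the groups are therefore given as a description, and no significance is drawn from them. The standard errors and intervals belong to the mean difference. They come from a fit that adjusts the variance of each gene towards a trend over all genes. RNA-sequencing was performed on whole lenses micro-dissected from newborn (P0) mice on a mixed C57BL/6J and FVB background, with 3 control and 3 Celf1cKO libraries, each from 2 pooled lenses. Celf1cKO mice carried the germline knockout allele Celf1lacZKI, a conditional allele Celf1flox with a loxP-flanked exon, and Pax6GFPCre, a Cre line that acts from the lens placode onward and also in the pancreatic lineage. Control mice are labelled Celf1lacZKI/+, so that by the labels both groups carried the knockout allele. The methods of the study instead give Cre-negative Celf1flox mice as the usual controls, and the genotype of these controls was not settled here.

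AP-1 is a family of dimers built from Jun proteins (Jun, Junb, Jund) and Fos proteins (Fos, Fosb, Fosl1, Fosl2), which pair through leucine zippers. Jun proteins can pair with each other or with Fos proteins, whereas Fos proteins need a Jun partner to bind DNA. Many of the genes are immediate early genes, which are transcribed within minutes of a growth factor or stress signal without new protein synthesis and whose mRNAs are short-lived. Celf1 is an RNA-binding protein that binds GU-rich elements in 3′ UTRs and, in other cell types, speeds the decay of short-lived mRNAs.

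Since the turnover of these mRNAs is governed in large part through the 3′ UTR, the sites found there are shown first. The longest annotated 3′ UTR of each gene (GENCODE M21, GRCm38) was searched on the sense strand for TGTTTGT, a core of the GU-rich element, and for TTATTTATT and ATTTA, an AU-rich nonamer and pentamer. In each window the capitals mark the match, T stands for U, and the lower-case letters are flanking UTR bases.

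Jun, chr4:95049673-95049701, minus strand, 2 overlapping GU-rich matches: gttattccaTGTTTGTTTGTttgggtgtc
Jun, chr4:95049648-95049674, minus strand, GU-rich match: tcctgcccagTGTTTGTaaataagaga
Junb, chr8:84976960-84976986, minus strand, GU-rich match: ttttaagatgTGTTTGTgtgtgtgtgt
Fosl2, chr5:32157012-32157038, plus strand, GU-rich match: atctctatttTGTTTGTttctcaagtg
Fosl2, chr5:32156871-32156899, plus strand, AU-rich nonamer: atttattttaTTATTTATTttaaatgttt
Fos, chr12:85477103-85477131, plus strand, AU-rich nonamer: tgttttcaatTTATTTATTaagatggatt

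Jun held 3 matches to TGTTTGT in a 3′ UTR of 1233 bases, Junb 1 in 485 bases and Fosl2 1 in 4653 bases. The other 5 genes (Jund, Fos, Egr1, Ier2 and Myc) held none. Among 13098 genes of the table with a 3′ UTR, 29.8% held the GU-rich core, 8.14% held the AU-rich nonamer and 70.1% held the pentamer, with a median length of 1195.5 bases. The pentamer occurred 8 times in Fosl2, 4 times in Jun and in Fos, 2 times in Junb, Egr1 and Myc, once in Jund and not at all in Ier2. Of the 3 genes with a GU-rich core, Fosl2 and Junb were higher in all Celf1cKO libraries and Jun had overlapping groups. Of the 5 without one, Jund was higher, Myc was lower and Fos, Egr1 and Ier2 overlapped. The groups did not overlap for 36.5% of all genes, and nothing is read from this split. A match is a stretch of letters, and binding was not measured.

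RefSeq promoters (250 bases before to 50 after the start, GRCm38.p6) were matched for 5 of the 8 genes, Jun, Junb, Jund, Fos and Fosl2. The window of Jund ends before, and that of Fosl2 begins after, the GENCODE start given below, so these windows belong to another annotated start and say nothing of the one given. Both strands were searched for the AP-1 site TGACTCA, the cAMP response element TGACGTCA, the Jun promoter variant TGACATCA and the CArG box that binds serum response factor. These occurred in 5.20%, 1.79%, 3.62% and 1.63% of 32851 promoters. Sites outside the windows and sites that depart from these motifs were not searched. Egr1, Ier2 and Myc had no matched window. A single match was found, the TGACATCA element 45 bases before the start of Jun, by which Jun is known to respond to AP-1 and ATF dimers. It is shown in capitals with its flanks.

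Jun promoter, chr4:95052250-95052277, minus strand: agcctcggggTGACATCAtgggctattt

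Between 40694454 and 44387151 reads per library were recovered from the deposited values. Celf1, the targeted gene, had a log2 CPM (reads scaled to the size of the library) of 9.95, 9.94 and 9.34 in control libraries 1 to 3 and of 8.93, 7.66 and 7.83 in Celf1cKO libraries 1 to 3. It was reduced by the test across all genes, with a log2 fold-change of -1.60 (SE 0.335, limma, Benjamini-Hochberg adjusted p = 0.0269). Reads outside the deleted exon still count towards this gene. Among Celf1cKO lenses, library 1 retained the most Celf1 RNA. For Jund and Fosl2 library 1 also lay nearest to the controls, whereas for Junb and Myc library 3 did. A relation to the level of Celf1 was not tested.

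Lens markers were abundant in all 6 libraries, with summed levels of 234604 to 267291 CPM in controls and 184637 to 196253 CPM in Celf1cKO lenses over 9 of 10 listed genes. The sum of 5 lens epithelium markers was 442, 466 and 508 CPM in controls against 370, 145 and 318 CPM in Celf1cKO lenses. Foxe3, a lens epithelial transcription factor, fell by 2.01 and Pdgfra, a growth factor receptor, by 1.54 on the log2 scale (limma, adjusted p = 0.0434 and 0.0497). The sum of 8 vascular endothelium markers was 142, 110 and 123 CPM in controls and 136, 25.0 and 63.0 CPM in Celf1cKO lenses, with Celf1cKO library 1 inside the control range. None of these 8 was called by limma or by voom, and 1 had an unadjusted limma p-value under 0.05. In whole lenses, fewer cells of a type and less RNA per cell cannot be told apart, which holds for each difference below. The part of these shifts in the values of the AP-1 genes was not tested.

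Jund had the highest level and the clearest difference between the groups among the 8 genes. It encodes the Jun protein that is commonly present in resting cells and lies on chromosome 8 (70698949 to 70700616, plus strand), where the antisense gene Gm11175, which is not in the table used here, overlaps it on the opposite strand. Its log2 CPM was 5.42, 5.07 and 5.07 in the controls and 6.61, 6.87 and 7.06 in Celf1cKO lenses. Each Celf1cKO library thus lay well above each control, and the gap was wider than the spread inside either group. The means were 5.19 ± 0.20 and 6.85 ± 0.23 (SD, n = 3 each), a log2 fold-change of 1.66 (SE 0.148) or 3.17-fold, with a 95% interval of 2.49 to 4.03. These values rested on 1249 to 1638 reads per control library and 4200 to 6584 reads per Celf1cKO library. Without Celf1cKO library 1 the log2 fold-change was 1.78, and without control library 2 or Celf1cKO library 3 it was 1.61 and 1.56.

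Jun encodes the Jun protein with the strongest activating function, and its level was similar in both groups. The gene lies on chromosome 4 (95049034 to 95052222, minus strand) and is overlapped by the antisense gene Junos, which is not in the table used here. Jun had a log2 CPM of 4.31, 4.61 and 4.51 in the controls and 4.30, 4.08 and 4.61 in Celf1cKO lenses, so the groups overlapped. The fold-change was 0.903 with a 95% interval of 0.696 to 1.17. With total-count scaling its small log2 difference turned from -0.15 to 0.08.

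Junb encodes a Jun protein that often restrains the activity of Jun and lies on chromosome 8 (84974484 to 84978718, minus strand). Junb had a log2 CPM of 2.68, 1.38 and 1.95 in the controls and 3.02, 3.53 and 2.98 in Celf1cKO lenses. All Celf1cKO libraries were above all controls, but the margin between control library 1 and Celf1cKO library 3 was small. The controls varied more (SD 0.65) than the Celf1cKO lenses (SD 0.31), and the log2 fold-change was 1.17 (SE 0.336). With total-count scaling, with quantile normalization and without control library 1 it was 1.40, 1.28 and 1.51. Junb overlaps Prdx2, a peroxidase gene on the opposite strand with a far higher mean log2 CPM of 8.06 ± 0.09 in controls and 8.29 ± 0.20 in Celf1cKO lenses (SD, n = 3 each). Whether the authors' counting used strand is not given in the sources used here, and without strand the reads of Jun, Junb and Jund cannot be told apart from those of their opposite-strand neighbours.

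**Figure D1:**
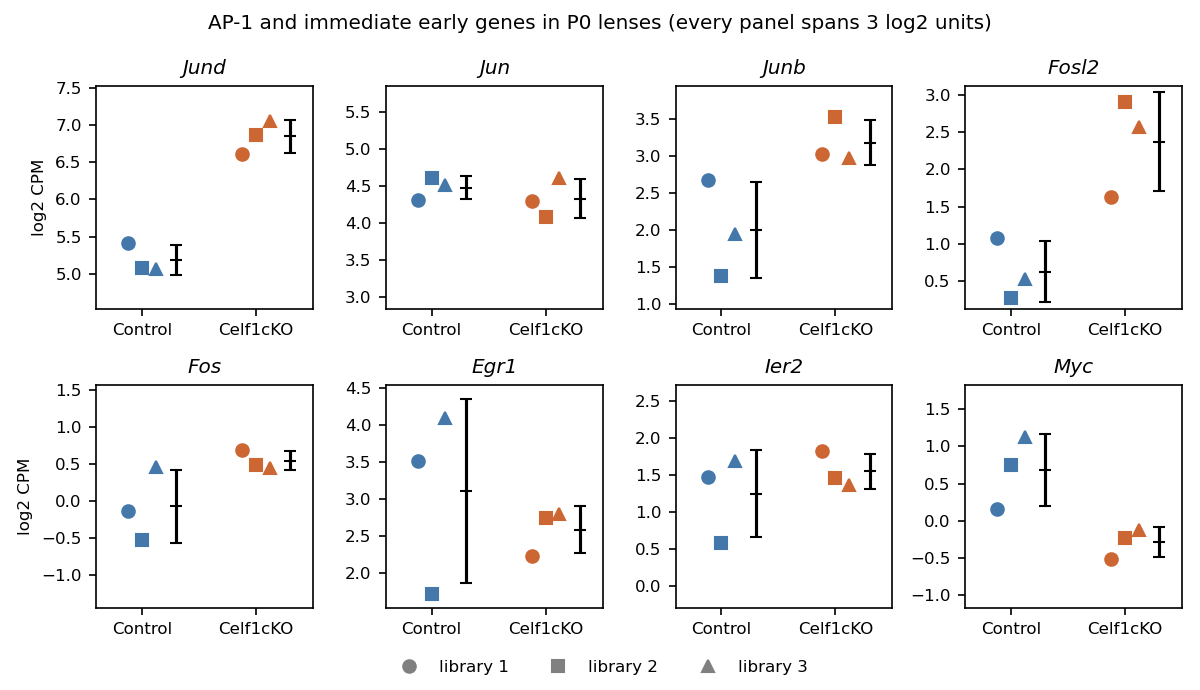
Log2 CPM of the 8 genes in each library (circles, squares and triangles for libraries 1, 2 and 3 of a group, which show no order), with the group mean and SD (n = 3) as a bar beside the points and the same axis span in each panel. Jund, Fosl2 and Junb lie higher and Myc lower in all 3 Celf1cKO libraries than in all 3 controls, while Jun, Fos, Egr1 and Ier2 overlap between the groups.

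Levels were compared between genes as CPM per kilobase of exonic sequence, with the length taken over all annotated exons of a gene. The length of the transcripts present in these lenses was not measured. Orders and shares between genes therefore depend on the annotated lengths. On this scale Jund exceeded Jun in every library, with 21.9 ± 3.20 against 6.99 ± 0.740 in controls and 69.6 ± 10.8 against 6.36 ± 1.20 in Celf1cKO lenses (SD, n = 3 each). Jund made up 74.1%, 69.7% and 69.6% of the summed Jun class in controls and 85.8%, 87.2% and 87.9% in Celf1cKO lenses. The share of Jun went from 23.0% ± 4.52 to 7.99% ± 1.28 although its own level overlapped between the groups. Junb stayed a minor part, between 3.73% and 7.97% in all 6 libraries. The summed class was 34.6, 28.9 and 28.8 in controls and 68.3, 80.4 and 91.2 CPM per kilobase in Celf1cKO lenses.

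Fosl2, which encodes the Fos protein Fra-2, differed more between the groups than Fos, the only other Fos class gene in the table. Fosl2 lies on chromosome 5 (32135801 to 32157842, plus strand) and was a low gene in controls. Control libraries had a log2 CPM of 1.08, 0.27 and 0.53 and Celf1cKO libraries one of 1.63, 2.91 and 2.58, from 43 to 79 and 131 to 363 reads. The groups did not overlap, and Celf1cKO library 1 was closest to the controls. The log2 fold-change was 1.75 (SE 0.379), or 3.36-fold with a 95% interval of 1.82 to 6.21. The log2 fold-change was 2.12 without Celf1cKO library 1 and 1.48 to 1.97 when any other library was left out.

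Fos, the prototype immediate early gene, lies on chromosome 12 (85473890 to 85477273, plus strand) and was barely detected, with 24 to 67 reads per library. Its log2 CPM was -0.14, -0.53 and 0.45 in the controls and 0.68, 0.49 and 0.45 in Celf1cKO lenses. Control library 3 and Celf1cKO library 3 were nearly equal, so the groups overlapped, and the fold-change of 1.53 had a 95% interval of 0.908 to 2.58. Fos had 0.401 ± 0.147 CPM per kilobase in controls and 0.601 ± 0.0549 in Celf1cKO lenses, and Fosl2 had 0.159 ± 0.0485 and 0.566 ± 0.232 (SD, n = 3 each). On this scale Fosl2 was 20.4% to 36.8% of the sum of the pair in controls and 32.2%, 57.2% and 52.2% in Celf1cKO lenses. Their sum, 0.560 ± 0.157 and 1.17 ± 0.186 CPM per kilobase, was small beside the Jun class in both groups.

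**Figure D2:**
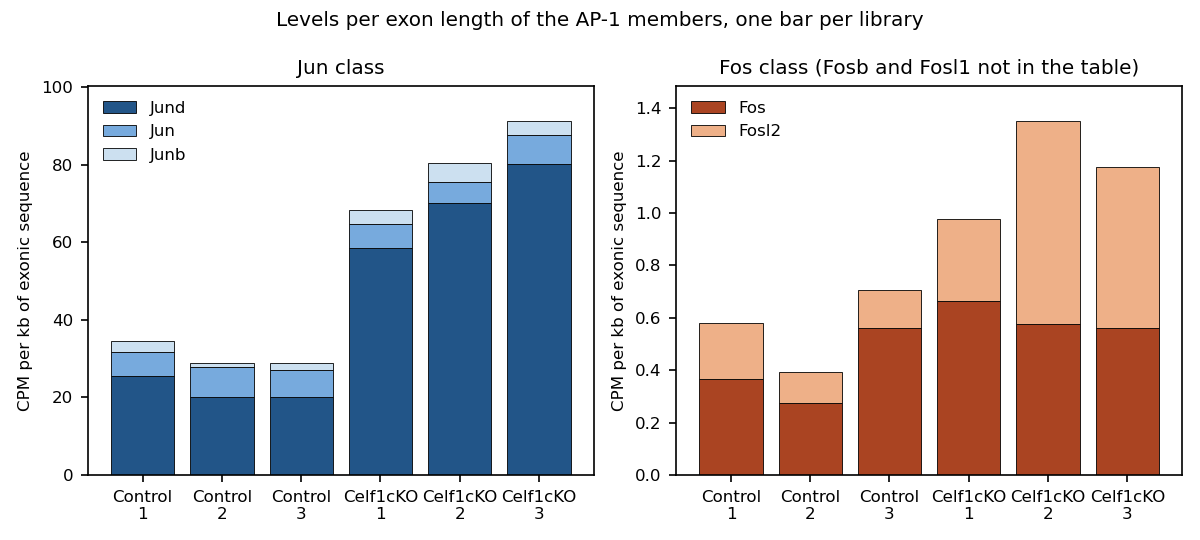
Stacked levels of the Jun class (left) and of Fos and Fosl2 (right) in CPM per kilobase of exonic sequence, with 1 bar per library and axes that start at 0 and differ in range between the panels. The Jun class sums are 28.8 to 34.6 in controls and 68.3 to 91.2 in Celf1cKO lenses, and Jund is the largest part of every bar.

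Egr1 encodes a zinc finger factor that serum response factor and its ternary complex partners switch on. It lies on chromosome 18 (34859823 to 34864984, plus strand) and varied mainly within the controls. Its log2 CPM was 3.51, 1.72 and 4.10 in the controls, from 435, 121 and 673 reads, and 2.23, 2.74 and 2.80 in Celf1cKO lenses. All 3 Celf1cKO libraries lay inside the control range, and the fold-change of 0.698 had a 95% interval of 0.283 to 1.72. The control SD of 1.24 was larger than that of 99.1% of 10640 expressed genes (average log2 CPM above 1). Leaving out control library 2 moved the log2 fold-change from -0.52 to -1.21, and leaving out control library 3 moved it to -0.02. The summed level of 9 retina, pigment and ciliary markers was 16.5, 4.47 and 41.0 CPM in the controls and 9.92, 12.4 and 37.2 CPM in Celf1cKO lenses. The order of libraries was that of Egr1 within each group but not across the groups. Celf1cKO library 3 had more of these markers than control library 1 but less Egr1 (6.92 against 11.4 CPM). These markers were set beside Egr1 after the values were seen. In control library 2, 8 of these 9 markers were the lowest among the controls. Mlana, a pigment cell marker, had 0 reads there, against just 9 and 14 reads in control libraries 1 and 3. The part of such tissue in the Egr1 values was not tested.

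Ier2, a short nuclear immediate early gene product, lies on chromosome 8 (84661331 to 84662852, minus strand). Ier2 had a log2 CPM of 1.48, 0.58 and 1.69 in the controls and 1.82, 1.46 and 1.37 in Celf1cKO lenses. The groups overlapped, and control library 2 was again the lowest. The log2 fold-change of 0.30 (SE 0.328) turned to -0.03 without that library.

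Myc, which encodes a growth-promoting factor that binds DNA with Max, was the single gene of the 8 that was lower in all Celf1cKO libraries than in all controls. It lies on chromosome 15 (61985391 to 61990374, plus strand). Its log2 CPM was 0.16, 0.76 and 1.12 in the controls and -0.52, -0.24 and -0.12 in Celf1cKO lenses, from 41 to 84 and 28 to 43 reads. The margin between control library 1 and Celf1cKO library 3 was small beside the control SD of 0.49. The log2 fold-change was -0.97 (SE 0.329), a fold-change of 0.510 with a 95% interval of 0.300 to 0.869. The average log2 CPM of Myc was below the expression threshold of 1. Mycn, the related gene that is the main form in many embryonic tissues, was far more abundant, with a mean log2 CPM of 6.05 ± 0.31 in controls and 5.66 ± 0.42 in Celf1cKO lenses (SD, n = 3 each), and its groups overlapped.

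In control lenses the order of mean levels per kilobase was Jund, Jun, Egr1, Junb, Ier2, Myc, Fos and Fosl2. The ranges of Egr1, Junb and Ier2 overlapped each other, as did those of Myc and Fos, while the remaining neighbours in this order were separate. In Celf1cKO lenses the order was Jund, Jun, Junb, Ier2, Egr1, Fos, Fosl2 and Myc. There the ranges of Fos and Fosl2 and of Fosl2 and Myc overlapped, and the other neighbours were separate. On this scale Fosl2 moved from the lowest place to that beside Fos, and Myc took the lowest place. The exonic length used was 9.68 kb for Fosl2 and 2.352 kb for Fos. In CPM without division by length, Fosl2 exceeded Fos in every control library. The CPM in control libraries 1 to 3 was 2.06, 1.16 and 1.40 for Fosl2 and 0.862, 0.646 and 1.32 for Fos.

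By the cut-offs of the study, called genes have an average log2 CPM above 1, a log2 fold-change beyond 0.58 in either direction and an adjusted p-value below 0.05. Jund and Fosl2 were called, both elevated, which is 2 of the 8 genes against 1030 of 13931 genes or 7.39% in either direction. Of all genes 4.77% were called elevated and 2.63% called reduced. The groups did not overlap for 4 of the 8 genes (Jund, Fosl2 and Junb higher, Myc lower), against 36.5% of all genes. The median log2 fold-change was 0.46 over the 8 genes and -0.04 over all genes. As the list was chosen with this contrast known, nothing is read from these calls and shares. The balance of calls over all genes moved with scaling, from 664 elevated and 366 reduced genes to 1663 and 204 with total-count scaling, which shifted the median log2 fold-change of expressed genes by 0.225.

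Other genes of the pathways were taken from lists that were drawn up with earlier results of these data known. Of 14 other AP-1 and ATF dimer partners in the table, Ddit3 and Atf5 were elevated and 12 were not called, with a median log2 fold-change of 0.06. Ddit3, which encodes the stress-induced factor CHOP, had a log2 CPM of 2.33, 2.37 and 2.29 in controls and 4.02, 4.49 and 4.35 in Celf1cKO lenses. Its log2 fold-change of 1.95 (SE 0.157, limma, adjusted p = 0.0085) was the largest among expressed partners. Atf5, a factor of the same stress response, rose by 0.85 (SE 0.191, limma, adjusted p = 0.0335). Atf3, a stress-induced partner of Jun singled out after its values were seen, had 0.29, -0.71 and -0.45 in controls and 1.74, 1.06 and 1.14 in Celf1cKO lenses. It differed in the limma test (log2 fold-change 1.60, adjusted p = 0.0313) but was too low on average to be called.

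Of 32 other immediate early genes in the table, 3 were elevated, 1 was reduced and 28 were not called, and the median log2 fold-change was -0.24. Plk3, a stress-responsive kinase gene, had a log2 CPM of 1.15, 0.93 and 1.14 in controls and 1.79, 3.40 and 2.62 in Celf1cKO lenses, and its log2 fold-change of 1.53 (SE 0.386, limma, adjusted p = 0.0455) was the largest of the list. Rhob, a small GTPase gene, rose by 0.87 (SE 0.119, adjusted p = 0.0107 in limma) and Klf6, a zinc finger factor gene, by 0.69 (SE 0.180, adjusted p = 0.0496 in limma). Ier5, a regulator of the heat shock response, fell by 0.78 (SE 0.193, adjusted p = 0.0428 in limma). In the fit with a replicate block 6 genes of this list were called in place of 4, with Gadd45g and Hes1 reduced as well. Among the genes not called, Dusp1, a MAP kinase phosphatase gene, had mean log2 CPM values of 5.23 ± 0.20 and 5.05 ± 0.21, and Zfp36, which encodes an AU-rich element binding protein, had 2.39 ± 0.14 and 2.17 ± 0.17 (SD, n = 3 each, both with overlapping groups).

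Of 8 genes for serum response factor and its partners none was called by limma or by voom and 2 had an unadjusted limma p-value under 0.05, and Fhl2, a cofactor, had the largest log2 fold-change of the expressed ones at -1.24 (SE 0.446, limma, adjusted p = 0.112). Of 23 genes of the JNK and p38 kinase pathways, which phosphorylate Jun proteins and ATF factors, 3 were elevated, 20 were not called and the median log2 fold-change was 0.10. Map3k20, a kinase that activates both pathways, had 2.07, 2.14 and 2.08 in controls and 3.31, 3.30 and 2.96 in Celf1cKO lenses (log2 fold-change 1.09, SE 0.164, limma, adjusted p = 0.0130). Dusp16, a phosphatase that inactivates JNK, rose by 0.73 (SE 0.154, adjusted p = 0.0277 in limma) and Mapk10, which encodes a JNK, by 0.71 (SE 0.184, adjusted p = 0.0486 in limma). An activating kinase and an inactivating phosphatase thus were both among the 3 elevated genes.

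Of 12 genes of the MYC and MAX network 1 was reduced and 11 were not called, with a median of -0.08. Mxd1, which encodes a partner of Max that opposes Myc, had a log2 CPM of 6.39, 6.71 and 6.84 in controls and 5.71, 5.43 and 5.27 in Celf1cKO lenses and fell by 1.18 (SE 0.154, limma, adjusted p = 0.0101). Of 13 genes for proteins that bind AU-rich or GU-rich elements, Celf2 and Parn were elevated, Celf1 was reduced and 10 were not called. Celf2, the closest relative of Celf1, had 3.27, 3.17 and 4.04 in controls and 4.31, 4.48 and 4.57 in Celf1cKO lenses (log2 fold-change 0.96, SE 0.233, limma, adjusted p = 0.0408). Parn, a deadenylase that CELF1 is known to engage, rose by 0.74 (SE 0.171, limma, adjusted p = 0.0357). In all, 13 of 99 pathway genes outside the list of 10 were called, 10 elevated and 3 reduced, beside the share of all genes given above.

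**Figure D3:**
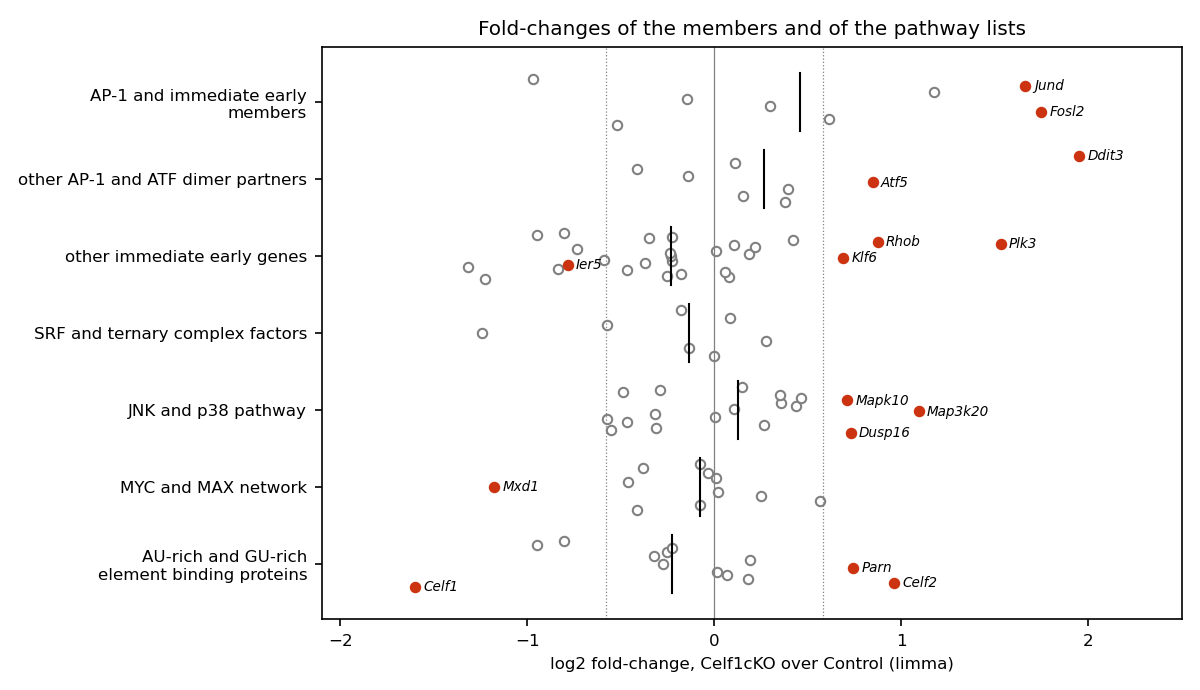
Log2 fold-change of Celf1cKO over control lenses (limma) for the 8 members and for pathway genes with an average log2 CPM above 1, with 1 point per gene, filled and named where called, a vertical bar at the median of the points shown, dotted lines at 0.58 in either direction and vertical scatter that carries no value. Ddit3 at 1.95, Fosl2 at 1.75 and Jund at 1.66 lie farthest to the right and Celf1 at -1.60 farthest to the left.

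The median SD of log2 CPM within the controls was 0.49 over the 8 genes and 0.35 over the 32 other immediate early genes, against 0.20 over all genes and 0.16 over expressed genes. Within Celf1cKO lenses the medians were 0.25 and 0.39, against 0.20 and 0.16. These medians were not matched for level, so a spread particular to these genes cannot be read from them. Fos, Myc, Ier2, Fosl2, Junb and Egr1 lay at percentiles 18.1, 18.2, 27.0, 30.3, 39.9 and 43.7 of average log2 CPM over all genes. Control library 2, picked out after the values were seen, was the lowest control for 5 of the 8 genes (Junb, Fosl2, Fos, Egr1 and Ier2) and for 16 of the 32, against 30.1% of all genes. Jund and Jun, the most abundant of the 8, spread least in the controls, with SDs of 0.20 and 0.15.

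**Figure D4:**
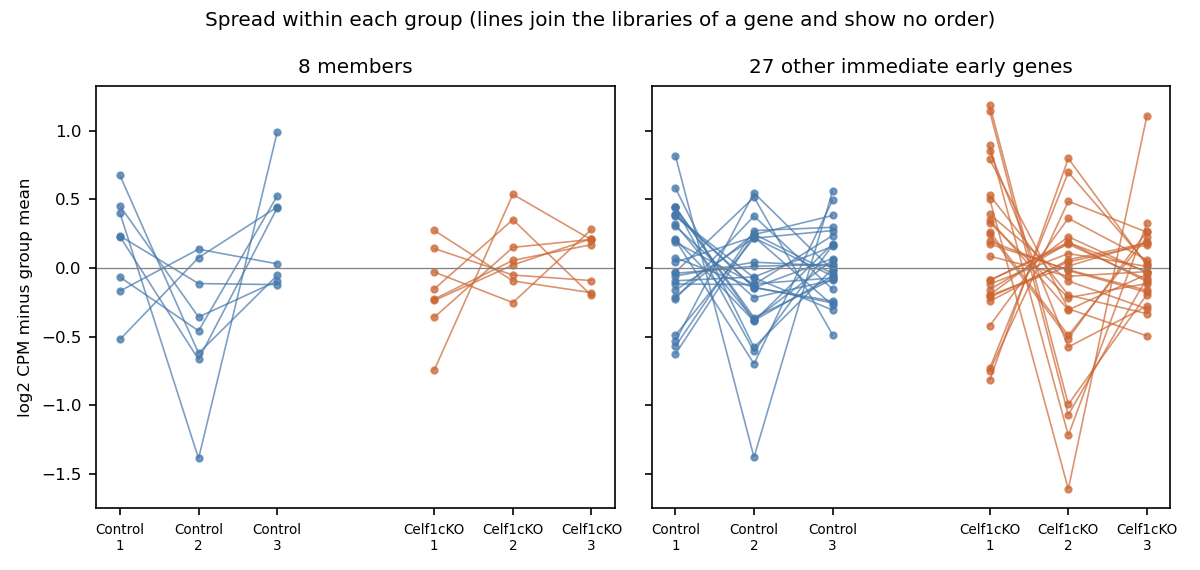
Log2 CPM minus the group mean in each library for the 8 members (left) and for the 27 other immediate early genes with an average log2 CPM above 1 (right), where lines join the libraries of a gene and show no order. Control library 2 lies lowest for 5 of the 8 members, with Egr1 farthest from its group mean.

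The expressed genes whose centred profile over the 6 libraries lay closest to that of a member, by Euclidean distance on the log2 scale, were named for Jun, Fos and Myc. For Jun these were Pik3cd (distance 0.119), Tsc22d1 (0.213) and Zbtb45 (0.241). The nearest to Fos were Tmc7 (0.233), Chrnb1 (0.281) and Slc15a4 (0.321). Thap6 (0.258), Pigh (0.366) and Tfpi (0.398) were nearest to Myc. With 6 libraries and 10640 expressed genes, close profiles occur for many genes, and the likeness is a description of these libraries.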

How the data were processed

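Per the labels and the study's methods, strand-specific paired-end libraries of P0 lens RNA were trimmed by the authors and aligned to GRCm38.p6 with STAR 2.7.8a. The authors counted unique reads per gene with featureCounts 2.0.0, dropped genes of very low CPM, normalized with edgeR and deposited log2 CPM values per library for 13931 genes. The deposited table also holds the authors' own fold-changes, p-values and test scores, which were not used, and their average log2 CPM, which was used for the expression threshold.

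Reads were recovered from the steps of the deposited values (100% whole within 0.1 of a read), and 3 reads, or 0.0609 to 0.0807 CPM, is the smallest level the depth shows. Groups were taken from the labels. Replicates came from separate pools of lenses. Group differences were fitted with limma 3.58.1 in R 4.3.3 with a variance trend over all 13931 genes and adjusted by the Benjamini-Hochberg method. The 95% intervals came from the same fit. The fit was tested on simulated data with 200 changed genes. The members and gene lists were chosen with earlier results of these data known.

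Named were all members, called genes of each pathway list and its expressed gene with the largest change, the 3 nearest profiles of Jun, Fos and Myc, Celf1 and called markers. Mycn, Dusp1, Zfp36, Atf3 and the marker Mlana were named after their values were seen. Deviations from the group means were correlated between same-numbered libraries over expressed genes (r = 0.30, 0.42 and 0.35), although the methods describe no pairing. A fit with the numbers as a replicate block was therefore run as an alternative. The main fit, with its standard errors, intervals and calls, used the group alone and no pairing. Exon lengths and 3′ UTRs came from GENCODE M21, and figures were drawn with matplotlib 3.10.9. Alternatives were the replicate block, other variance models, pseudocount, filter, scalings, voom on the recovered reads, other fold thresholds and each library left out.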

Additional observations from a re-analysis of the deposited data

How the results depend on the processing

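With the replicate block 1279 genes were called in place of 1030, 15 pathway genes in place of 13, and the same number of members, 2. Apart from Gadd45g and Hes1 no named pathway gene or member changed its call. Without the variance trend 421 genes, 4 pathway genes and 1 member were called. Total-count scaling gave 1867 genes, a log2 fold-change threshold of 1 gave 387 genes and 5 pathway genes, and no threshold gave 1550 genes. With total-count scaling and with quantile normalization 3 members were called, as Junb was added. The calls of members show how far they depend on the processing, and no significance is drawn from them. Leaving out 1 library gave 1 to 1916 genes, 0 to 19 pathway genes and 0 to 2 members. These were 596, 1 and 438 genes without control library 1, 2 or 3, and 1916, 436 and 1 without Celf1cKO library 1, 2 or 3. The 2 members called were Jund and Junb without control library 1, and Jund and Fosl2 without Celf1cKO library 1. Jund was the 1 member called without control library 3 or Celf1cKO library 2. Without control library 2 or Celf1cKO library 3, 0 members were called. The cause was not tested. The log2 fold-change changed sign for Jun with total-count scaling (0.0792) and for Ier2 without control library 2 (-0.0338, within a range of -0.0338 to 0.518 over the libraries left out), neither of which was called. Over all alternatives that of Jund was 1.56 to 1.89, of Fosl2 1.30 to 2.12, of Junb 0.86 to 1.51 and of Myc -1.23 to -0.54. Among 15 refits, Fosl2 lost its call in 6 and Jund in 2, and Junb gained one in 3. Fos and Myc rested on under 100 reads in each library, which limits what their values can show.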

Other observations

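The GU-rich core TGTTTGT was found in the 3′ UTR of 46.6% of 661 called elevated genes and of 27.6% of 348 called reduced genes, against 29.8% of all 13098 genes with a 3′ UTR. The median 3′ UTR was 1579 bases in the elevated genes and 1508 bases in the reduced genes, both above the 1195.5 bases of all genes. The AU-rich nonamer was in 11.8% and 9.48% of these genes, against 8.14%. This comparison was made after the values of the members had been seen and is a description without a test.

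The 3 expressed genes with profiles nearest to Jund, looked up after its values were seen, were Dnajc12 (Euclidean distance 0.270 over 6 libraries), Castor2 (0.301) and Rem2 (0.332). Among 8 lens fiber markers the fiber genes Bfsp1, Crybb2, Dnase2b and Gja3 were reduced, with log2 fold-changes of -1.47, -1.67, -2.81 and -1.13 (limma, adjusted p = 0.0139, 0.0306, 0.0141 and 0.0193). The summed fiber markers were 36550, 40619 and 35446 CPM in controls and 26530, 26961 and 24617 CPM in Celf1cKO lenses. Macrophage markers summed to 4.39 to 9.70 CPM in controls and 5.68 to 8.61 CPM in Celf1cKO lenses, and of the 7 measured none was called or had an unadjusted limma p-value under 0.05. Mesenchyme markers (5 measured) summed to 14.1 to 17.3 CPM in controls and 3.23 to 12.5 CPM in Celf1cKO lenses, and cornea and skin markers (3 measured) to 6.17 to 7.13 and 4.40 to 5.31 CPM, with none called by limma without a block or by voom and 2 and 1 at an unadjusted limma p-value under 0.05. With the replicate block the mesenchyme marker Pdgfrb was called, with a log2 fold-change of -1.31 (limma, adjusted p = 0.0462). The single erythroid marker measured, Alas2, lay between 0.0412 and 1.35 CPM.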
